A study of Mus musculus with 2 samples.

Results

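Adhesion G protein-coupled receptors (adhesion GPCRs) are the mouse genes named Adgr, and they were followed here in endothelial cells of the embryonic kidney. Members were taken by name. They are all genes whose symbol in the platform annotation begins with Adgr and a subfamily letter, from probe sets that list exactly 1 gene, with older symbols such as Eltd1 and Gpr116 counted as their Adgr gene. This gave 22 genes of the 18193 genes measured, on 41 probe sets. The RefSeq gene table lists 27 protein-coding mouse genes of this name, and the other 5 (Adgrf2, Adgrf3, Adgrg4, Adgrg5 and Adgrg7) were not analysed here.

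Adhesion GPCRs pair a long extracellular part, built from adhesion domains, with a membrane-spanning G protein-coupled receptor. Most are cut during their synthesis at a site close to the membrane, and the short stretch that this exposes can act as a tethered activator once the outer part binds a matrix protein or a neighbouring cell. In blood vessels the family is known above all for Adgrl4 and Adgrf5, whose joint loss in mice damages vessels and the kidney glomerulus, and for Adgra2, a receptor that brain vessels need in order to form.

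The study profiled kidney endothelium of embryos and adults, and the arrays used here are embryonic ones, of another type and with more rounds of amplification and fewer samples than its methods describe. They form 1 group of 2 samples. The embryos were CD-1 mice at E15.5, which is Theiler stage 23, and carried the transgene Tg(TIE2GFP)287Sato, in which the promoter of the endothelial receptor gene Tek (Tie2) drives GFP. Per the labels, approximately 5 to 10 kidneys were pooled for a sample, dissociated with trypsin and sorted, and RNA was amplified in 2 rounds before it was put on 1 array. Adult and unsorted cells were not analysed here. Without a contrast no test was possible, and the spread between the pools, which nothing states to be separate litters, may be technical. Flk1 stands in the sample titles, whereas the transgene reports Tie2, and the source is labelled as endothelium of the renal artery and vein, whereas whole kidneys were dissociated. Tie2 is also used by some blood cells.

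Each value is an intensity in arbitrary units, with replicate 1 before replicate 2. A gene was called above background only if its brightest probe set exceeded, on both arrays, the 95th percentile of 86 probe sets for sensory receptors of smell, pheromones and taste. This limit was 198.9 in replicate 1 and 203.9 in replicate 2. How bright a probe set is also depends on its own sequence, so no gene is ranked against another. All 10 endothelial marker genes were above background, among them Cdh5 (22435 and 20733) and Tek (15908 and 21499), whose promoter drives the reporter used for sorting. Macrophage genes were there as well (9 of 10, summed intensity 84951 and 99647) and renal stroma genes differed between the pools (8 of 10 above background, summed intensity 9146 and 32640). Over all genes 61.2% were above background, and no other cells were compared, so these counts do not test the labelled cell type.

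Of the 22 adhesion GPCR genes, 13 (59.1%) were above background on both arrays, against 61.2% of all genes. The share of the family was thus close to that of the array as a whole. By subfamily the counts ran from none to all, over 4 genes at most. All 4 genes of subfamily L and all 3 of subfamily E were above background, with 2 of 3 in subfamily A, 2 of 4 in G, 1 of 3 in F and the single V gene. None of the 3 genes of subfamily B was (0 of 3), nor the single D gene. A further 2 members passed the limit on 1 array only, as did 6.54% of all genes, and 7 passed it on neither array. In a sorted pool, fewer cells that use a gene and less RNA per cell cannot be told apart.

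**Figure D1:**
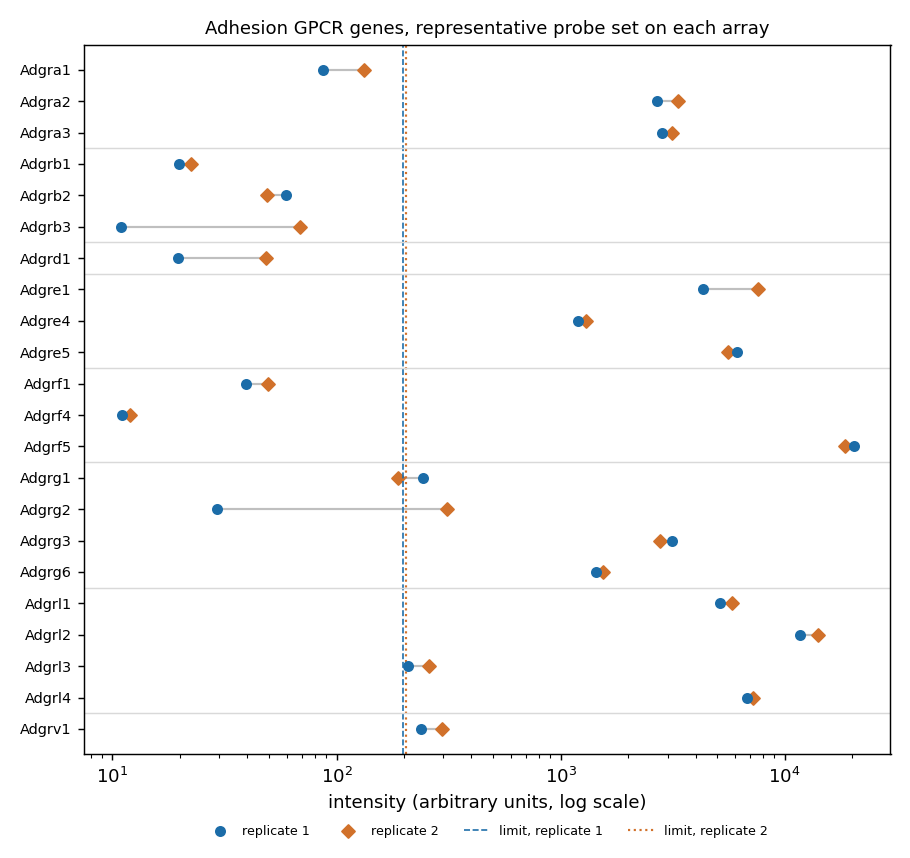
Intensity of the 22 adhesion GPCR genes in replicate 1 (blue circles) and replicate 2 (orange diamonds), by the brightest probe set of each gene, in arbitrary units on a log scale, with the background limits as vertical lines and grey rules between subfamilies. The 13 genes with both points to the right of the limits include all of subfamilies E and L, and the wide gap of Adgrg2 spans the limits.

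The receptors best known from endothelium were clearly detected. Adgrl4, formerly Eltd1, is a receptor named for its EGF-like repeats and a familiar marker of vessels. It gave 6758 in replicate 1 and 7210.0 in replicate 2, and its other probe set gave 5183 and 4074. Adgrf5, formerly Gpr116, is expressed in endothelium and also limits surfactant in the lung. It gave 20354 and 18642, with 11795 and 8897 on its other probe set. For both genes every probe set on each array lay far above the limit, and the arrays differed by 1.04-fold for Adgrl4 and 1.12-fold for Adgrf5.

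Adgra2, formerly Gpr124, works with the anchored protein Reck as a coreceptor for Wnt7 ligands in brain vessels, and it is also used by pericytes and other mesenchymal cells. It gave 2695 and 3347 on its single probe set, 1.22-fold higher in replicate 2. Both arrays were well above the limit. Replicate 2 was also higher for the renal stroma genes, whose part in the value of Adgra2 was not tested. By the brightest probe sets, 10 of the 13 members above background were higher in replicate 2. With the median of each gene's probe sets, 3 members were higher in replicate 2 and 7 in replicate 1. Adgra3, formerly Gpr125, a relative of Adgra2 without a settled ligand, gave 2843 and 3129. That rests on 1 of its 3 probe sets, since the others gave 25.96 and 117.1, and 12.62 and 7.16. Adgra1, the third gene of the subfamily and known mainly from brain, stayed below the limit on all 3 of its probe sets, the brightest of which gave 87.31 and 132.8.

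Subfamily G includes receptors of matrix proteins. Adgrg3, formerly Gpr97, is known from granulocytes and other immune cells and has been studied in lymphatic endothelium. It gave 3143 in replicate 1 and 2767 in replicate 2. Of 6 measured granulocyte genes 2 were above background on both arrays, beside 61.2% of all genes. These 2 were Mpo (993.8 and 918.3) and S100a8 (1079 and 817.2), while Elane (141.1 and 28.88) and S100a9 (30.70 and 13.91) were below the limit on both. Camp passed in replicate 2 only (52.97 and 305.2) and Prtn3 in replicate 1 only (205.7 and 172.8). The summed intensity of the 6 genes was 2503 and 2256, and none was at 0. The part of such cells in the value of Adgrg3 was not tested. Adgrg6, formerly Gpr126, binds type IV collagen, is needed for myelin formation by Schwann cells and also takes part in vessel growth. It gave 1444 and 1549.5, and 286.7 and 317.1 on its other probe set. Of 5 measured Schwann and neural crest genes only Erbb3 (242.2 and 356.2) was above background on both arrays, beside 61.2% of all genes. Sox10, the defining factor of Schwann and neural crest cells, gave 173.5 and 212.8. These 5 genes summed to 602.3 and 1147, none at 0, and their part in the value of Adgrg6 was not tested.

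The remaining genes of the subfamily passed on 1 array each. Adgrg1, formerly Gpr56, a collagen III receptor of neural and blood progenitors, gave 243.0 in replicate 1 and 187.2 in replicate 2, and 206.1 and 179.2 on its other probe set. Both probe sets thus passed in replicate 1 and missed in replicate 2, with all 4 values close to the limit. Adgrg2, formerly Gpr64 and known from the epididymis, gave 29.20 and 310.7, and its other probe set gave 5.22 and 31.31. Its brightest value in replicate 2 was the only one of the 4 above the limit, so the size of the gap between the arrays is not measured.

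Promoters are shown for Adgrl4 and Adgrf5, the receptors best known from endothelium, because ETS factors are known regulators of endothelial genes. That of Adgrg3 is shown for its number of matches to an ETS-type word. Sequences are from RefSeq (GRCm38.p6), run from 250 bases before a start site to 50 after it, and lie on the plus strand. Capitals mark GGAA and its reverse complement TTCC, the core letters that ETS factors bind. Adgrl4 lies at chr3:151437632-151437931, the promoters of the 2 start sites of Adgrf5 at chr17:43360181-43360480 and chr17:43389216-43389515, and Adgrg3 at chr8:95017442-95017741.
Adgrl4: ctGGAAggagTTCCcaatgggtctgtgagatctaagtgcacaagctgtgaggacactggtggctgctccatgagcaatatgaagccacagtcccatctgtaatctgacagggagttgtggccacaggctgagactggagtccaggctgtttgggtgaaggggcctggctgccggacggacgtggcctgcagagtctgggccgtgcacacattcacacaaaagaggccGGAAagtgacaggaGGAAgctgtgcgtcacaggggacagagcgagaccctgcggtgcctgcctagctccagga
Adgrf5, upstream start: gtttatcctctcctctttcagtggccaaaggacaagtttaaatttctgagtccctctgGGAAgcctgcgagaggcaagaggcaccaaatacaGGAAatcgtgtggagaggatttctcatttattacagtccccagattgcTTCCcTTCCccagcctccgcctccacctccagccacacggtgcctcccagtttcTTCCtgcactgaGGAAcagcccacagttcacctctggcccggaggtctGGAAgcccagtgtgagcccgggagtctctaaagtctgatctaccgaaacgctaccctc
Adgrf5, downstream start: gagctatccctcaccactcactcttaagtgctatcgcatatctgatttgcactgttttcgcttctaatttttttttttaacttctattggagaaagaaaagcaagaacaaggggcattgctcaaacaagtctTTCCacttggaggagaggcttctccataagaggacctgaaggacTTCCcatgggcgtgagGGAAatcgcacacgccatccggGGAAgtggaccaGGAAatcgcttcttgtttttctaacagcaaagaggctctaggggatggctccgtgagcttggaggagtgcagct
Adgrg3: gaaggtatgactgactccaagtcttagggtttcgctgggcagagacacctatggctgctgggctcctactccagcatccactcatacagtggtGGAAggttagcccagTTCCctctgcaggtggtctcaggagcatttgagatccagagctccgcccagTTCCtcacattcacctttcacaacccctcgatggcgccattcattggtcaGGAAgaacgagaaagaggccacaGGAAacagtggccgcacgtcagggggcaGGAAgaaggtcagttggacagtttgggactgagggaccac

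These promoters held 4 core matches in Adgrl4, 7 and 5 in the windows of Adgrf5, and 6 in Adgrg3, over both strands. The core is common, with a match in 96.0% of 32851 mouse promoters and a median of 3 matches. The longer word CAGGAA, or TTCCTG on the other strand, contains the core and was present in 30.6% of promoters. It occurred 3 times in Adgrg3, 2 times and 1 time in the windows of Adgrf5, and 0 times in Adgrl4. The word was chosen with the study's own promoter analysis known. That analysis names Adgrg3, as Gpr97, among genes with a conserved ETS-type site (RYTTCCTG) that contains the word. Its genes came from the study's list with raised expression in embryonic endothelium over other developing kidney compartments. The word is shorter than the site, and not every match in Adgrg3 fits the whole site. Adgrg3 was also picked out after its count was seen, so the count is a description only and is not independent of the study. Windows with 3 or more matches made up 0.989% of promoters. In all, 17 members had 21 promoter windows, of which 18 held the core, beside 96.0% of all promoters. The longer word was in 7 of the 21, a share near the 30.6% of all promoters. The longer word was present in 5 of 13 windows of members above background on both arrays and in 1 of 5 windows of members below it on both. A match of letters does not show a bound site.

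The latrophilins Adgrl1, Adgrl2 and Adgrl3, which are the L subfamily without Adgrl4, bind teneurins and FLRT proteins on other cells. They are best known from synapses. Adgrl2 gave 11721 in replicate 1 and 14104 in replicate 2, and 8659 and 8656 on a second probe set, while the last of its 3 probe sets was below the limit (21.62 and 191.9). Adgrl1 gave 5157 and 5832, with 455.7 and 409.1 on its other probe set. Both genes were therefore above background on every array through more than 1 probe set. Adgrl3 was not of this kind. Its representative gave 207.6 and 259.5, only 1.04 and 1.27 times the limits, and 1 of its 6 probe sets passed on both arrays. Another 4 passed on 1 array and the last (14.72 and 160.4) on none. Of the 6 probe sets 5 were higher in replicate 2, and the brightest there gave 125.6 in replicate 1 and 334.9 in replicate 2. Of 6 measured neuronal genes 2 were above background on both arrays, Stmn2 (350.0 and 448.6) and Syt1 (258.7 and 210.5), beside 61.2% of all genes. Another 2 passed on 1 array and 2 on neither, Tubb3 (32.25 and 10.3) and Snap25 (69.53 and 10.59). The summed intensity of the 6 genes was 1170.0 and 1050.3.

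Receptors of the E subfamily are carried by leukocytes. Adgre1, the F4/80 antigen by which mouse macrophages are identified, gave 4305 in replicate 1 and 7632 in replicate 2. Adgre4, a related receptor of myeloid cells, gave 1195 and 1298, and 506.8 and 454.9 on its other probe set. Adgre5 (CD97), found on most leukocytes and on many other cells, gave 6109 and 5591. All 3 were well above the limit on both arrays. Macrophage genes outside the family were above background together with them, among them Csf1r (34029.5 and 36806) and Mrc1 (15057 and 22983), and Itgam was the exception (130.9 and 94.4). Adgre1 was 1.74-fold higher in replicate 2, and 7 of the 9 macrophage genes above background were higher there as well, and the median of these log2 differences, taken as replicate 1 minus replicate 2, was -0.11. Which cells gave the signal of the 3 genes was not tested.

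Adgrv1, a very long receptor of the inner ear and retina, passed on both arrays but narrowly (237.4 and 295.3), through 1 of its 2 probe sets. The other gave 2.65 and 17.24.

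The genes below background are known mostly from nervous tissue and epithelium. The B subfamily, first described as brain angiogenesis inhibitors, gave 19.81 and 22.33 for Adgrb1, which recognises dying cells, 59.78 and 48.82 for Adgrb2, and 10.91 and 68.55 for Adgrb3, a synaptic receptor of C1q-like proteins. Adgrd1, a receptor that raises cyclic AMP, gave 19.53 and 48.60. Adgrf1, known from neurons and epithelium, gave 39.38 and 49.65, and its relative Adgrf4 gave 11.07 and 12. With Adgra1, these were the 7 genes that passed on neither array, and their brightest value was 132.8. Each of the 6 named in this paragraph had only 1 probe set, and no other probe set bears on these values.

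Genes with several probe sets passed more often, in the family as on the whole array. The brightest probe set stands for a gene, so several probe sets give it more chances to pass. Of the 12 members with several probe sets, 9 were above background on both arrays, against 78.0% of all such genes. Of the 10 members with 1 probe set, 4 were, against 44.6% of all such genes. Among the 41 probe sets themselves 19 were above background on both arrays, 7 on 1 array and 15 on neither, against 55.1% above on both for all probe sets with 1 gene. In 4 of the 12 members with several, Adgra3, Adgrl2, Adgrl3 and Adgrv1, some probe sets passed on both arrays and others did not, beside 44.2% of all genes with several probe sets were of this mixed kind. Signal near the 3' end of control transcripts exceeded that near the 5' end 3.16-fold and 3.67-fold for Actb and 19.5-fold and 22.3-fold for Gapdh, and the part of this bias in the low probe sets was not tested.

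**Figure D2:**
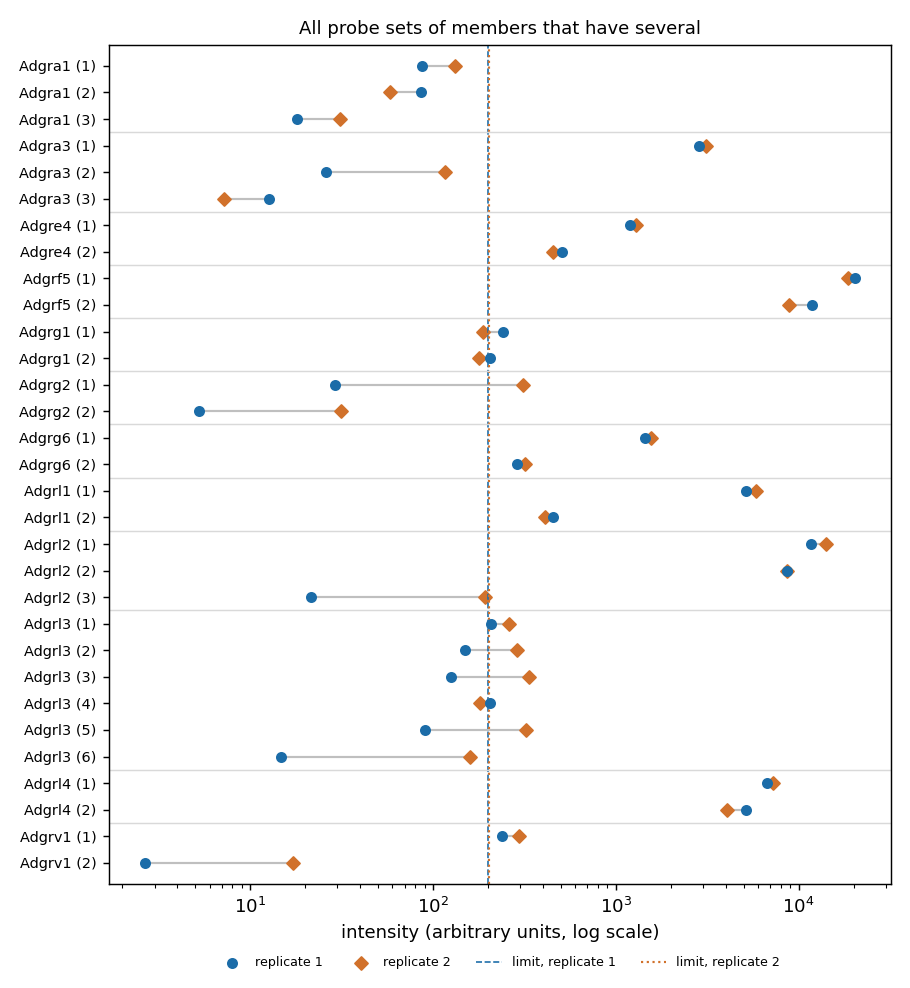
Intensity of every probe set of the 12 members with several, numbered from the brightest, in replicate 1 (blue circles) and replicate 2 (orange diamonds), in arbitrary units on a log scale, with the background limits as vertical lines. Both probe sets of Adgre4, Adgrf5, Adgrg6, Adgrl1 and Adgrl4 lie to the right of the limits, and those of Adgrl3 gather around them.

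Several members lie side by side in the genome, and such neighbours were alike in some cases and not in others. In the RefSeq table Adgrf5 follows Adgrf1 on chromosome 17 with 0 protein-coding genes listed between them, and Adgrf5 was far above the limit on both arrays while Adgrf1 was below it. Adgrg1 and Adgrg3 are likewise adjacent on chromosome 8, where Adgrg3 was above the limit on both arrays and Adgrg1 on 1. In contrast, the adjacent pair Adgrl2 and Adgrl4 on chromosome 3, and the pair Adgre5 and Adgrl1 on chromosome 8, were above background together.

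Genes that encode ligands and partners of these receptors were examined next. Of 26 listed, 25 were measured and 18 were above background on both arrays, 1 on 1 array and 6 on neither. The share was 61.2% over all genes and 78.0% over all genes with several probe sets, which most of the listed genes have. The count is therefore no result about these genes. For Adgra2, the coreceptor partner Reck gave 2411 and 2941. The ligands Wnt7a (387.1 and 293.8) and Wnt7b (395.0 and 374.3) were above background on both arrays too, but below 2 times the limit on each. Dlg1, a scaffold that binds the tail of Adgra2, gave 12489.9 and 12527. For Adgrg6, the genes of type IV collagen, Col4a1 (43709 and 46199.8) and Col4a2 (32728 and 26789), were above background on both arrays. So were Prnp, the prion protein gene (10849 and 11428), and the laminin gene Lama2 (301.5 and 757.8). For Adgrg1, Col3a1 gave 14533 and 43894 and the transglutaminase Tgm2 gave 15149 and 13944, although the receptor itself was at the limit.

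For the latrophilins, Flrt2 gave 19349 and 18768 and Flrt3 gave 2778 and 3316, while Flrt1 was below the limit (162.2 and 165.2). The teneurins Tenm3 (419.9 and 841.4) and Tenm4 (374.7 and 929.5) were above background on both arrays, Tenm2 in replicate 1 only (435.1 and 155.1) and Tenm1 on neither (68.36 and 185.9). For Adgre5, the ligand Thy1 gave 297.3 and 363.6, and Cd55 (79.56 and 190.1) was below the limit. Sftpd, a surfactant protein that binds Adgrf5, was below it as well (187.9 and 111.0). Elmo1 (5039 and 7028) and Dock1 (11213 and 11499), which carry the engulfment signal of Adgrb1, were above background although Adgrb1 was not. Of the C1q-like ligands of Adgrb3, C1ql3 was just above the limit, C1ql1 and C1ql2 were below it and C1ql4 was not analysed here, with C1ql3 at 222.2 and 208.8, C1ql1 at 179.4 and 181.5 and C1ql2 at 13.26 and 22.47.

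**Figure D3:**
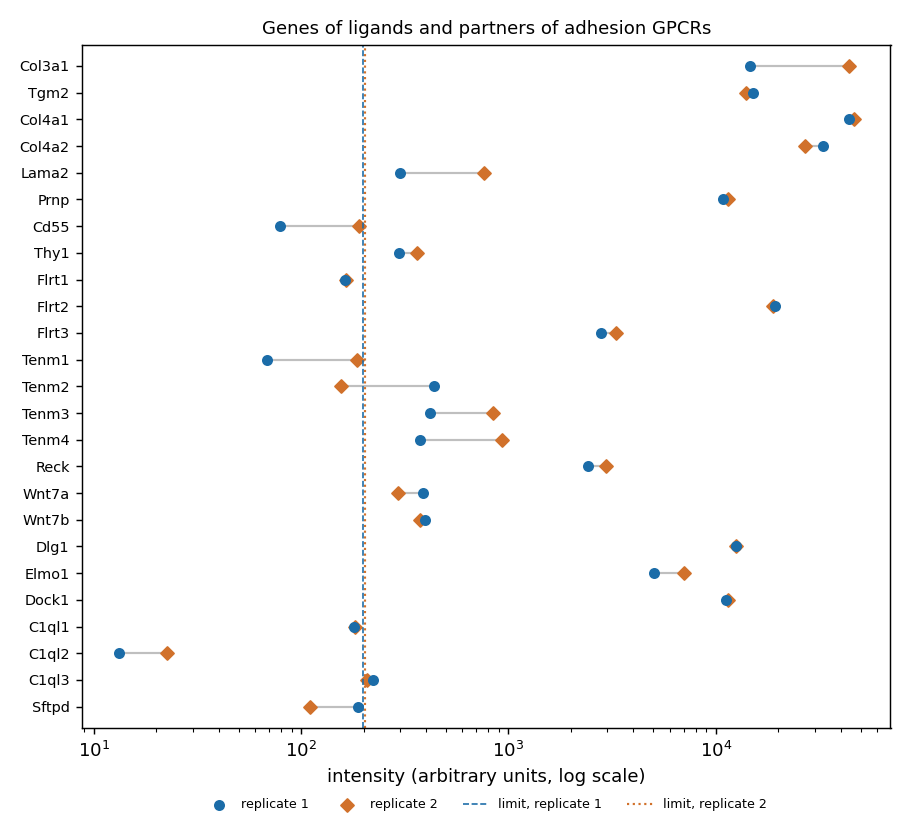
Intensity of 25 genes of ligands and partners of adhesion GPCRs in replicate 1 (blue circles) and replicate 2 (orange diamonds), by the brightest probe set of each gene, in arbitrary units on a log scale, with the background limits as vertical lines. Col3a1, Lama2 and Tenm4 show wide gaps toward replicate 2, and Col4a1, Prnp and Flrt2 narrow ones.

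Receptors of this family signal through G proteins, and of 12 alpha subunit genes 9 were above background on both arrays. The share over all genes was 61.2%, and 78.0% over all genes with several probe sets, so the count is no result about these subunits. Gna12 (6009 and 5211) and Gna13 (10423 and 14919), used by many adhesion GPCRs, were among them. So were Gnas (45771 and 47796), which raises cyclic AMP, Gnaq (6159.9 and 5525), which activates phospholipase C, and Gnai2 (30607 and 25831). Gna15 (118.1 and 128.1) and Gnao1 (103.3 and 58.38) were below the limit, and Gnaz passed in replicate 2 only (106.5 and 206.9).

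The pools were then compared for the 13 members above background on both arrays. After the medians of the arrays were made equal, log2 differences (replicate 1 minus replicate 2) ran from -0.79 for Adgre1 to 0.22 for Adgrg3. Their median was -0.11 with an SD of 0.26, against a median of 0.04 and an SD of 0.51 over all 11127 genes above background. No member differed by over 2-fold (0 of 13 in either direction), beside 2.21% of genes higher in replicate 1 and 2.60% higher in replicate 2. The median absolute difference was 0.16 for the members and 0.30 for all genes. At shares this low the 0 is no result about the family.

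Replicate 2 had the higher value in 10 of the 13 members, and Adgre5, Adgrf5 and Adgrg3 were higher in replicate 1. This split depended on the choice of probe set. With the median of each gene's probe sets 10 members were above background, 7 of them higher in replicate 1 and 3 higher in replicate 2, and the median difference was 0.04. Probe sets of 1 gene also went opposite ways, with differences of -0.06 and 0.38 for Adgrl4, -0.15 and 0.19 for Adgrl1, and -0.09 and 0.19 for Adgre4. These gaps within a gene are as wide as most of the gaps between the pools.

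Renal stroma and mural genes differed between the pools. Each of the 8 renal stroma genes above background had its higher value in replicate 2 (median log2 difference -1.91). Mural genes had a median of -0.57 (5 of 8 above background, beside 61.2% of all genes, summed intensity 12772 and 16359). Of the 18 ligand and partner genes above background on both arrays, Col3a1 (2.96-fold), Lama2 (2.46-fold) and Tenm4 (2.43-fold) were over 2-fold higher in replicate 2. This stands beside 2.60% of all genes above background, and the median log2 difference of the 18 genes was -0.05. Of the receptors near or across the limit, Adgrg2, Adgrl3 and Adgrv1 had higher values in replicate 2 and Adgrg1 in replicate 1. Whether stroma in replicate 2 gave the higher values there was not tested. Endothelial markers had a median of 0.13 (7 of 10 higher in replicate 1), beside -0.06 and 0.38 for the probe sets of Adgrl4 and 0.16 and 0.44 for those of Adgrf5.

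**Figure D4:**
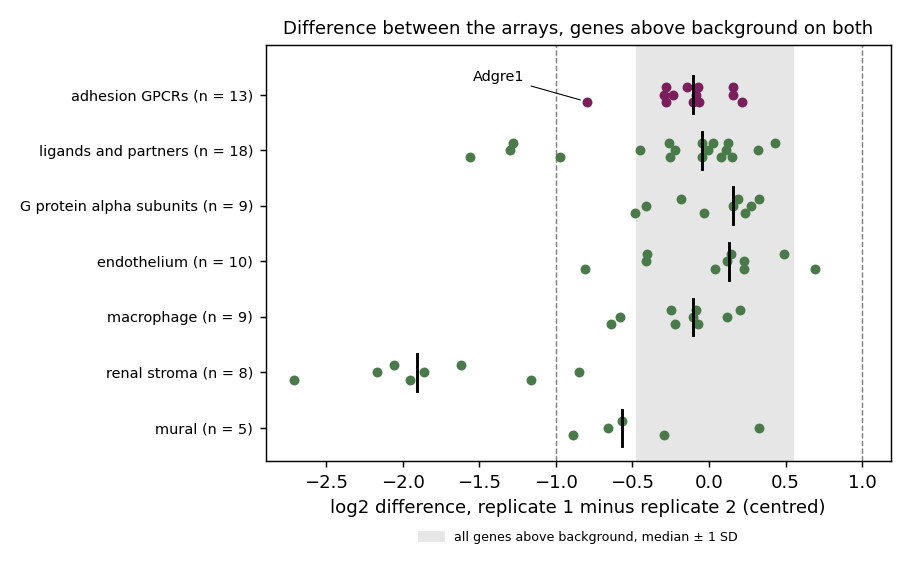
Log2 difference in intensity, replicate 1 minus replicate 2 after centring, of genes above background on both arrays (dots, 1 per gene), for the adhesion GPCRs and 6 other gene lists, with each list's median (black marks), the median ± 1 SD of all genes (grey band) and 2-fold (dashed lines). 12 of the 13 receptors lie within the band, Adgre1 lies at -0.79, and the renal stroma genes lie to the left with a median of -1.91.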

How the data were processed

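Intensities of Affymetrix 3' expression arrays, 2 in all, were analysed as the authors deposited them, 1 linear value per probe set. The submitters' processing notes name GCOS without a version, and the algorithm was not given in the sources used here. Trimmed means (2% cut at each end) were 1499.97 and 1499.94, so the arrays had been scaled alike. The study's methods describe another array type and were not taken for these arrays. Of 45101 probe sets, 64 controls were left out and 34945 have 1 gene in the platform annotation. For each gene the probe set brightest on average (mean log2) was used. The background limit and the 2-fold threshold are described with the results. Log2 differences were centred on probe sets above the limit, which removed an offset of -0.03. With 1 group no test was run. The number of arrays limits the precision. All members were named, with ligands, partners and markers from fixed lists. The members and lists were chosen with earlier results of these data known. The centring and the 2-fold comparison were tested on simulated data with differences implanted in bright genes. The background call was not tested in this way. Alternatives concerned the limit, the probe set, the scaling, the centring and each array. Protein sequences were not used here. Python 3.11.15, pandas 2.3.3 and numpy 2.4.6 were used.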

Additional observations from a re-analysis of the deposited data

How the results depend on the processing

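The count of 13 members above background moved between 10 and 14 under the alternatives tried. A limit at the 99th percentile, or 2 times the limit, left 11, without Adgrl3 and Adgrv1, beside 56.7% and 52.5% of all genes. A limit of 100 gave 14 with Adgrg1 added, beside 72.7% of all genes. The study's methods also ask for a raw level of 100, but on another array type and processing, so the levels are not equivalent. The median of each gene's probe sets gave 10, without Adgra3, Adgrl3 and Adgrv1, beside 53.6%. Probe sets with plain identifiers gave 10 of 18, beside 57.7%, since Adgra2, Adgre1, Adgre5 and Adgrg1 have none. Each array alone gave 14, beside 64.5% without replicate 1 and 64.3% without replicate 2. Quantile normalization left 13. The median log2 difference ran from -0.14 to -0.06 except with the median of probe sets (0.04), and 0 members passed 2-fold under every alternative run. No paired analysis was possible because there is 1 group.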

Other observations

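Celsr1, Celsr2 and Celsr3 are cadherin-type relatives that carry no Adgr symbol and were counted apart. They organise cell polarity in the plane of a tissue. Celsr1 gave 1539.5 in replicate 1 and 1028 in replicate 2, Celsr2 gave 602.3 and 548.5, and Celsr3 was below the limit on both arrays. Celsr1 was 1.53-fold higher in replicate 1.

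Markers of further cell types in which single adhesion GPCRs are known were few or near the limit, except some of those of blood progenitors. All 6 haematopoietic progenitor genes were above background, beside 61.2% of all genes. Kit (4840.2 and 4183), Gata2 (5292 and 5178), Myb (1111 and 1915) and Cd34 (23661 and 25343) were well above the limit. Runx1 (444.3 and 496.0) and Spi1 (394.7 and 294.0) were nearer to it. Cd34 and Kit are also used by some endothelium. Of 11 measured genes of nephron and ureteric epithelium 3 were above background on both arrays, Six2 (269.5 and 229.5), Cdh1 (261.9 and 379.1) and Krt8 (426.3 and 418.0), and 5 passed on 1 array only.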
